A study of Homo sapiens with 6 samples.

Results

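CD68 and 49 other genes of the lysosome and of autophagy were followed in treated and untreated HCT-shSLBP cells, a colon cancer line. CD68 was picked because it was higher in treated cells in this same comparison, so its values are given as a description with no test. The other 49 were taken as known genes of the pathway, in 5 classes: membrane proteins and cholesterol carriers, hydrolases and their activators, the proton pump, the transcription factors TFEB and TFE3, and the autophagy core. Of the 50, 48 were measured on probe sets annotated to a single gene, among 22411 such genes on the array. NPC2 and GLB1 were measured only on probe sets that carry a second symbol and are described apart.

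HCT-shSLBP cells derive from HCT116, and shSLBP in the name stands for a hairpin that targets SLBP, a protein that binds the stem-loop of histone mRNAs. Both groups are this line: 3 cultures (Control) stayed without doxycycline and 3 cultures (Dox) received it at 2 µg/ml. Total RNA of each culture was hybridised to 1 Affymetrix array, and values are RMA signals on the log2 scale. No group has doxycycline without the hairpin, so what the drug does by itself cannot be told apart from what the hairpin does, and neither the time on doxycycline nor whether the line is 1 clone was given in the sources used here.

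Lysosomes are acidic organelles that break down proteins, lipids and sugars. Their membrane is lined with glycosylated proteins, their lumen is acidified by a proton pump, the V-ATPase, and is filled with hydrolases that work at low pH. In autophagy, a membrane sac closes around cytoplasm and fuses with the lysosome. The transcription factors TFEB and TFE3 bind a palindromic E-box motif in the promoters of many of these genes.

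The motif is shown first, since it is the element through which many of these genes are known to be switched on together. The letters CACGTG, the longer TCACGTGA that contains them, and the full CLEAR element of 10 letters, which contains both, are each their own reverse complement, so 1 search covers both strands. RefSeq promoter windows of 300 bases (GRCh38.p14, from 250 bases before to 50 after the start of the gene) were matched for 39 of the 50 members. The 250 bases before the start are printed 5′ to 3′ on the gene's strand for both genes that fell, for GAA, a hydrolase gene with the longest form of the motif that did not pass the test, and for CD68. Capitals mark the motif.
MCOLN1: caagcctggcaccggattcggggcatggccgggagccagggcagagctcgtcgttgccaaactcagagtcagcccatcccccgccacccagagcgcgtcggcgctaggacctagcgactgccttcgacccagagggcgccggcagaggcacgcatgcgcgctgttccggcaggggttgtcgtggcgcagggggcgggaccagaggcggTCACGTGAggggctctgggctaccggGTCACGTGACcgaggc
ATP6V0D1: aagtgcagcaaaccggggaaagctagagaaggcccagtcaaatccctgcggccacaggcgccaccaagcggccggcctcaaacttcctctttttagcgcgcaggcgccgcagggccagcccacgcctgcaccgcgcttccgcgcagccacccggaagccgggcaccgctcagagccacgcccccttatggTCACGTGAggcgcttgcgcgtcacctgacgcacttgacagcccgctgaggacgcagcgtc
GAA: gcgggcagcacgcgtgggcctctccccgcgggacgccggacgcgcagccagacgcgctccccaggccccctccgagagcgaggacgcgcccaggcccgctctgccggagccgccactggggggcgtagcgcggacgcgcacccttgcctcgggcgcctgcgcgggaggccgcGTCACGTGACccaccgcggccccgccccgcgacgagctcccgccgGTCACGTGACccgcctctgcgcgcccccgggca
CD68: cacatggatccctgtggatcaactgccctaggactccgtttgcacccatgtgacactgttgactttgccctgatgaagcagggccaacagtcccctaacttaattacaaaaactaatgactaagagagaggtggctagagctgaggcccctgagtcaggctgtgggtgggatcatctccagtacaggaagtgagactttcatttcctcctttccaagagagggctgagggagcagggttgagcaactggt
The MCOLN1 stretch is chr19:7522374-7522623 (plus strand), that of ATP6V0D1 is chr16:67481158-67481407 (minus strand), that of GAA is chr17:80101331-80101580 (plus strand) and that of CD68 is chr17:7579388-7579637 (plus strand). CACGTG occurred in 10 of the 39 member windows (25.6%), TCACGTGA in 6 (15.4%) and the full element in 2 (5.13%), MCOLN1 and GAA. Among all 27305 windows of the table the shares were 7.43%, 1.04% and 0.381%. The median GC content was 69.0% in the member windows and 58.3% in all windows. The windows of CD68 and of the 5 members that rose held no CACGTG, and the windows of both members that fell held TCACGTGA. LAMP1 held 6 copies of CACGTG, GAA, CTSA and ATG3 held 2 each, and CD63, CTSD, NEU1 and ATG14 held 1 each, and none of these 8 genes passed the test described next. The groups compared here were set by the calls in these data and are small, so this is a description. A match describes these letters in this window and not binding.

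Each gene was compared between the groups with limma, a linear model that shares the estimate of the spread across genes, and adjusted p under 0.05 (Benjamini-Hochberg, over all 22411 genes) is what "rose" and "fell" refer to. All changes are differences in log2 signal, Dox minus Control. SLBP itself left 58.6% of its Control signal in treated cells (change -0.77, SE 0.055, limma adjusted p = 0.00322). Markers of colorectal epithelium were present, with 12 of 14 above a signal of 4.51, the 95th percentile of 366 olfactory receptor genes, which colon cells are not known for, the keratin genes KRT8, KRT18 and KRT19 and the adhesion gene EPCAM among them, while CEACAM5 and CEACAM6 were under it. All 48 members were above that level, as were 14783 of all 22411 genes. Of the epithelial markers CLDN4 (0.21) and CLDN7 (0.19) rose, and both calls were lost whichever of the 6 arrays was left out (limma adjusted p 0.0604 to 0.111 and 0.0647 to 0.127).

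Of the 47 measured members other than CD68, 5 rose and 2 fell. The rises were in NPC1, TPP1, GABARAPL1, WIPI1 and ATG12, and the falls in MCOLN1 and ATP6V0D1. Of all genes tested, 2.93% rose and 3.27% fell (6.19% together). Of the 13416 genes at or above the signal of the dimmest member, 4.36% rose and 4.9% fell (9.26% together). Of the members, 10.6% rose and 4.26% fell. The median change of the 47 was -0.0064, beside -0.019 over all genes, and their median absolute change was 0.084, beside 0.066. The 3 Dox arrays lay above all 3 Control arrays in 12 members (25.5%, beside 12.5% of all genes) and below them in 14 (29.8%, beside 16.7%), and the groups did not overlap in 29.2% of all genes. Among the 13416 brighter genes the shares were 17.2% above, 21.6% below and 38.8% in either direction. The members were chosen with results of these data known, so these counts describe the list and are no test of it.

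**Figure D1:**
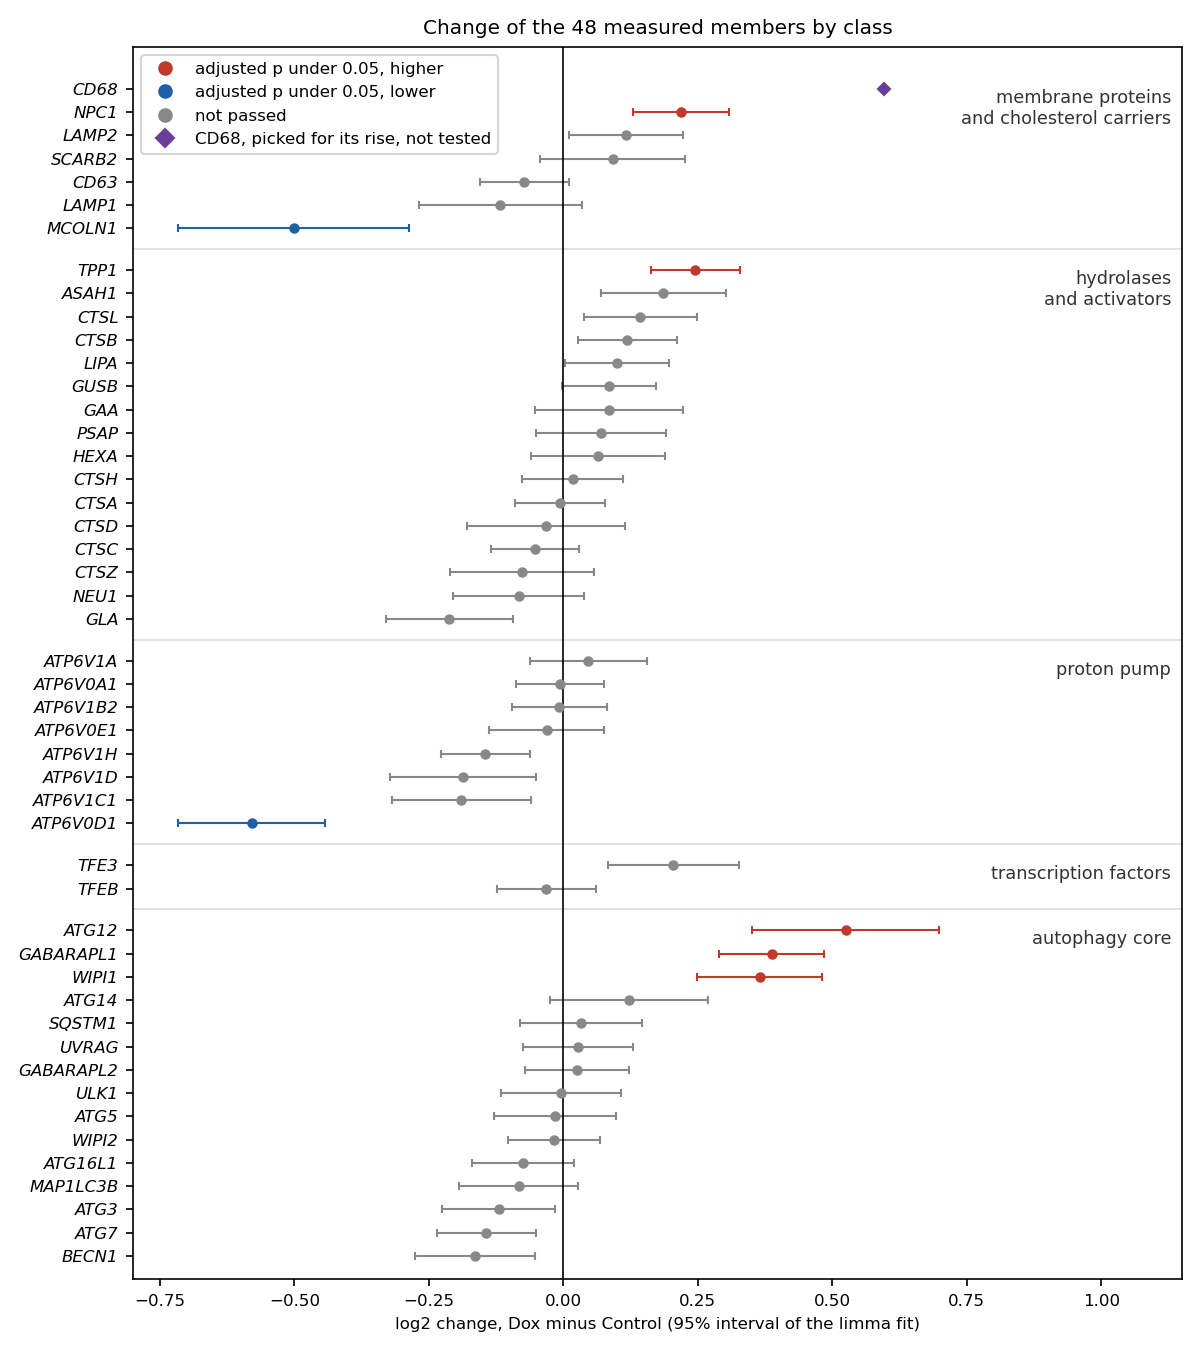
Change of each of the 48 measured members between treated and untreated cultures (x axis, log2 signal, Dox minus Control), grouped by class, with the 95% interval of the limma fit over 3 arrays per group for every gene but CD68. CD68 lies at 0.60, ATG12 at 0.52 and ATP6V0D1 at -0.58, and most other members lie within 0.2 of 0.

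CD68 is a heavily glycosylated membrane protein of late endosomes and lysosomes, related to LAMP1 and LAMP2 and widely used to mark macrophages. Its signal was 7.00, 6.93 and 6.98 in the Control cultures and 7.55, 7.59 and 7.56 in the Dox cultures. The groups stood clearly apart and the treated cultures differed among themselves by less than the untreated ones. The group means were 6.97 ± 0.038 and 7.57 ± 0.019 (SD, n = 3 each). The difference of 0.60 is a signal 51.2% higher, and it was the largest rise among the members, which is what it was picked for.

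Of 20 other markers of macrophages and monocytes, 10 lay above the olfactory receptor level by their mean over all arrays, beside 14783 of all 22411 genes. These 10 were AIF1, C1QA, C1QB, C1QC, CSF1R, ITGAM, ITGAX, MARCO, SPI1 and TYROBP, the last with the highest signal (6.08 in Control and 6.10 in Dox). The other 10 were at or under it, and 4 of them are given here. PTPRC, the pan-leukocyte phosphatase, had mean signals of 1.99 and 1.95 in Control and Dox, and the monocyte receptor CD14 had 4.16 and 4.21. LYZ, lysozyme, had 2.84 and 2.75, and the scavenger receptor CD163 had 2.72 and 2.74. All 4 were under the olfactory receptor level in both groups. ITGAX, an integrin subunit of myeloid cells, was the only marker of that list that passed, with a rise of 0.20 (SE 0.036, limma adjusted p = 0.027). That call was lost whichever of the 6 arrays was left out (limma adjusted p 0.0537 to 0.11). The summed linear signal of the 20 markers was 481 to 508 in the Control arrays and 500.4 to 515 in the Dox arrays. All cultures are of the same line. In RNA of whole cultures, more cells expressing a gene and more of its RNA per cell cannot be told apart.

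Of 10 genes next to CD68 on chromosome 17, taken as the 5 nearest on each side in RefSeq's order, 5 were measured as single genes. MPDU1, which acts in the use of dolichol-linked sugars, fell from 7.57 to 7.27 (change -0.30, SE 0.041, limma adjusted p = 0.012). The small nucleolar RNA genes SNORA48 (0.14, adjusted p = 0.375) and SNORD10 (0.042, adjusted p = 0.852), and the genes SOX15 (-0.079, adjusted p = 0.489) and FXR2 (-0.042, adjusted p = 0.56), did not pass limma's test. None of these neighbours rose. RefSeq places the antisense gene MPDU1-AS1 over CD68, and it was not measured as a single gene.

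**Figure D2:**
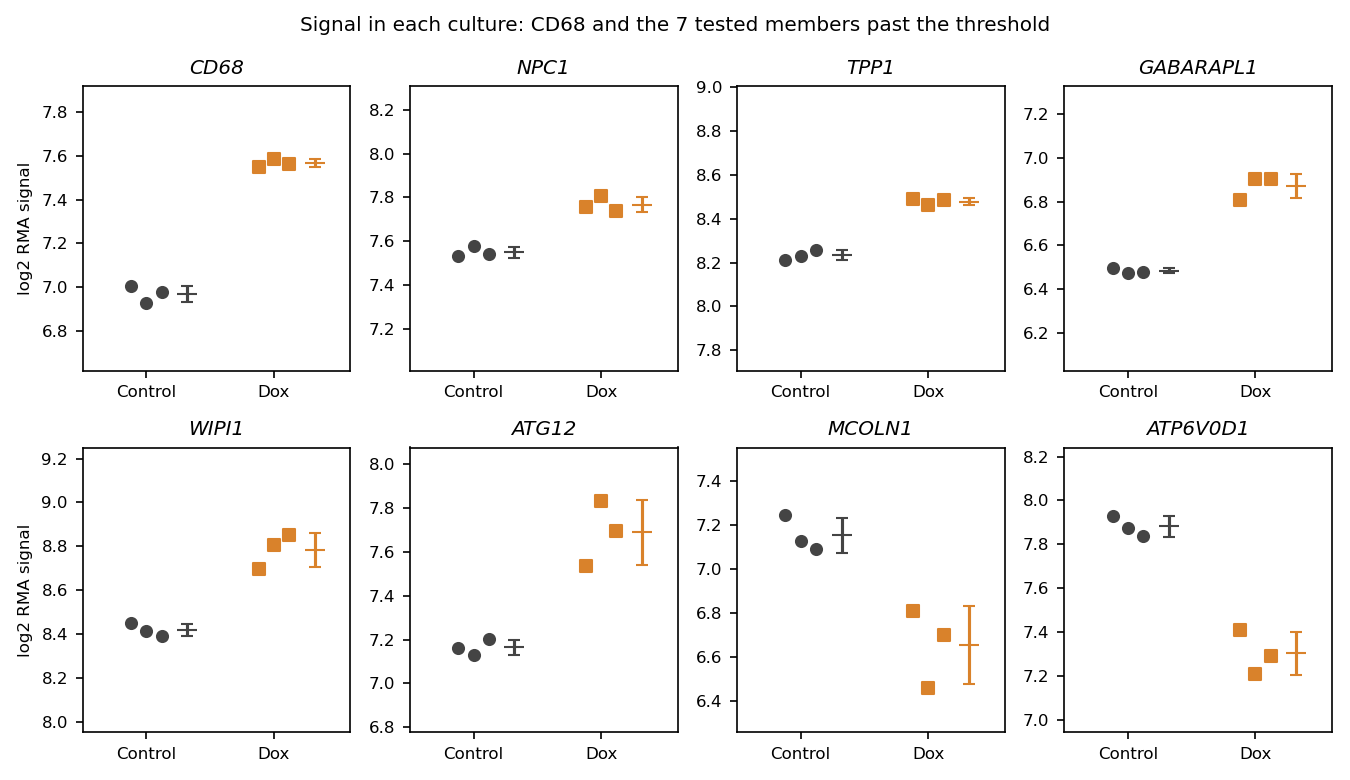
Log2 RMA signal in each culture for CD68, which was not tested, and for the 7 tested members past the threshold (3 Control, circles, and 3 Dox, squares), with the group mean and SD beside the points. Every panel spans the same range on the y axis, and in all 8 genes the groups do not overlap.

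Among the other membrane proteins and cholesterol carriers, 1 of 6 rose and 1 fell (33.3% passed, beside 9.26% of the brighter genes). NPC1, which exports cholesterol from the lysosome, had signals of 7.53, 7.58 and 7.54 in Control and 7.76, 7.81 and 7.74 in Dox. All treated cultures were higher, and the change of 0.22 (SE 0.038, limma adjusted p = 0.0232) is a signal 16.3% higher. NPC2 is the soluble partner of NPC1 in the lumen. The probe set shared by NPC2 and MIR4709 was level, at a mean of 9.25 in Control and 9.27 in Dox (change 0.021, SE 0.051, limma adjusted p = 0.893 over all probe sets).

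MCOLN1, the calcium release channel of the lysosome, moved the other way. It had signals of 7.25, 7.13 and 7.09 in Control and 6.81, 6.46 and 6.70 in Dox. All treated cultures were lower, with the second Dox culture lowest, and the spread among treated cultures was the widest of any member. The change was -0.50 (SE 0.091, limma adjusted p = 0.0267), a signal that fell by 29.3%. Its family members MCOLN2 (-0.0062, adjusted p = 0.955) and MCOLN3 (0.10, adjusted p = 0.223) did not pass limma's test, and whether they differ from MCOLN1 was not tested.

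LAMP1 (-0.12, 95% interval -0.27 to 0.034, limma adjusted p = 0.34) and LAMP2 (0.12, 95% interval 0.011 to 0.22, adjusted p = 0.181), the most abundant glycoproteins of that membrane, lay on opposite sides of 0 and neither passed. The tetraspanin CD63 (-0.073, adjusted p = 0.277) and SCARB2, the receptor that carries glucocerebrosidase to lysosomes (0.091, adjusted p = 0.407), did not pass limma's test either. For CD63 the lowest Control signal was 8.28 and the highest Dox signal 8.24, so the groups were close but did not overlap.

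Of 16 hydrolases and activators, 1 rose and none fell by limma's test (6.25% passed, beside 9.26% of the brighter genes). An unadjusted p under 0.05 was found in 6 (37.5%). That share was 22.6% over all genes and 30.1% over the 13416 brighter genes. TPP1, tripeptidyl peptidase of the lysosome, had signals of 8.21, 8.23 and 8.26 in Control and 8.49, 8.46 and 8.48 in Dox. The treated cultures were tightly grouped and all higher, by 0.25 (SE 0.035, limma adjusted p = 0.0141), or 18.5%. Among the 15 that did not pass, GLA, alpha-galactosidase A, was closest, with signals of 7.05, 6.99 and 7.03 in Control and 6.72, 6.84 and 6.88 in Dox. Its groups did not overlap (change -0.21, SE 0.050, limma adjusted p = 0.0536).

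ASAH1, acid ceramidase, had higher values in all treated cultures without passing (0.19, SE 0.049, limma adjusted p = 0.073), and so had the cysteine proteases CTSL (0.14, adjusted p = 0.109) and CTSB (0.12, adjusted p = 0.128). LIPA, the acid lipase that splits cholesteryl esters, and GUSB, beta-glucuronidase, were also above Control in every treated culture, at 0.10 and 0.084, and did not pass. The values of CTSA, CTSC, CTSD, CTSH, CTSZ, GAA, HEXA, NEU1 and PSAP lay between -0.083 (NEU1) and 0.084 (GAA). Of these, only CTSC (-0.053) had every treated culture below every untreated one. In CTSA, the protective protein of the sialidase NEU1 and of beta-galactosidase, the 95% interval was -0.091 to 0.077, and in CTSD, the main aspartic protease of lysosomes, it was -0.18 to 0.11. GLB1 encodes that beta-galactosidase. The probe set shared by GLB1 and TMPPE had means of 7.45 in Control and 7.59 in Dox and did not pass (0.15, SE 0.047, limma adjusted p = 0.219 over all probe sets). Over the class, 10 of 16 means were higher, beside 5776 of the 13416 brighter genes, and the median change was 0.067.

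The V-ATPase has a membrane sector, V0, which lets protons through, and a cytosolic sector, V1, which splits ATP. Of the 8 pump genes in the set, 1 fell and none rose (12.5% passed, beside 9.26% of the brighter genes). Means were lower in treated cultures for 7 of them (median -0.088). A lower mean was also the more common direction over all genes (13050 of 22411) and over the brighter genes (7640 of 13416). All Dox arrays lay below all Control arrays in 4 of the 8 pump genes (50%) and above them in none. Those shares were 21.6% and 17.2% of the brighter genes. ATP6V0D1, the d subunit that joins the central stalk to the V0 ring, had signals of 7.93, 7.88 and 7.84 in Control and 7.41, 7.21 and 7.29 in Dox. No other measured member was lowered as far: the change was -0.58 (SE 0.058, limma adjusted p = 0.00679), a signal that fell by 33.1%. Its relative ATP6V0D2 lay far under the olfactory receptor level, at 2.35 and 2.53. The other V0 subunits of the set did not pass, ATP6V0A1 at -0.0064 (95% interval -0.088 to 0.075) and ATP6V0E1 at -0.031 (95% interval -0.14 to 0.075).

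In the V1 sector, ATP6V1H (-0.14, SE 0.035, limma adjusted p = 0.0594), ATP6V1C1 (-0.19, adjusted p = 0.0916) and ATP6V1D (-0.19, adjusted p = 0.108), which regulate or link the rotor and the stator, had every treated culture below every untreated one and did not pass. The catalytic subunit ATP6V1A (0.046, adjusted p = 0.614) and its partner ATP6V1B2 (-0.0074, adjusted p = 0.934) overlapped between the groups. A second, dim probe set of ATP6V1D gave -0.32, also lower. When the mean of both probe sets was fitted, ATP6V1D passed (-0.26, limma adjusted p = 0.0244). Over all 22 measured subunit genes, those outside the set included, 2 fell and none rose (9.09% passed, beside 9.26% of the brighter genes). The second was ATP6V0A2, an a subunit of V0 found mainly in the Golgi and endosomes, which went from a mean of 6.24 to one of 6.05, with no overlap between the groups (change -0.19, SE 0.041, limma adjusted p = 0.0461). With 1 probe set kept per gene, none of the 13 V1 subunit genes passed limma's test. The 4 (30.8%) with an unadjusted p under 0.05 are close to the 30.1% of the brighter genes. All Dox arrays lay below all Control arrays in 5 of the 13 (38.5%) and above them in none. Among the brighter genes those shares were 21.6% and 17.2%.

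Neither transcription factor passed the test. TFE3 had signals of 6.76, 6.80 and 6.81 in Control and 6.99, 6.91 and 7.09 in Dox. All treated cultures were higher (0.20, SE 0.052, limma adjusted p = 0.066). TFEB had means of 5.51 and 5.48 and overlapping groups (-0.032, 95% interval -0.12 to 0.061). Their activity depends largely on where the proteins are in the cell, which these arrays do not measure.

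In the autophagy core 3 of 15 genes rose (20%, beside 4.36% of the brighter genes) and none fell. The median of the class was -0.0046. All Dox arrays lay above all Control arrays in 3 genes (20%). They lay below them in 5 (33.3%), MAP1LC3B, BECN1, ATG3, ATG7 and ATG16L1. Among the brighter genes those shares were 17.2% above and 21.6% below. ATG12, the ubiquitin-like protein that is joined to ATG5, had signals of 7.16, 7.13 and 7.20 in Control and 7.54, 7.83 and 7.69 in Dox. All treated cultures were higher, the second most, and the change was 0.52 (SE 0.074, limma adjusted p = 0.0132), or 43.8%. AP3S1, a subunit of the AP-3 adaptor and the nearest measured gene, 370 bases from ATG12 in RefSeq, rose as well (0.31, SE 0.044, limma adjusted p = 0.0132). It was looked up after the value of ATG12 was seen, as were measured genes nearest to or overlapping other called members. RMC1 at NPC1 (-0.025) and PNPLA6 at MCOLN1 (0.085) did not pass limma's test. Neither did TAF10 at TPP1 (-0.015) and HSD11B2 at ATP6V0D1 (0.0093). The partners of ATG12 were level or slightly lower: ATG5 was at -0.015 (95% interval -0.13 to 0.099), ATG16L1, which binds the ATG12-ATG5 conjugate, at -0.075 (adjusted p = 0.331), ATG7, which activates ATG12, at -0.14 (SE 0.039, adjusted p = 0.0788), and ATG3, the conjugating enzyme for LC3, at -0.12 (adjusted p = 0.167), none of which passed limma's test.

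GABARAPL1, one of the LC3-like proteins that are attached to the autophagosome membrane, had signals of 6.50, 6.48 and 6.48 in Control and 6.81, 6.90 and 6.90 in Dox. The untreated cultures were nearly identical and the treated ones all higher (0.39, SE 0.041, limma adjusted p = 0.0078), or 30.8%. Its relatives did not pass limma's test: GABARAPL2 was at 0.025 (95% interval -0.072 to 0.12), GABARAP at -0.011 (95% interval -0.12 to 0.10) and MAP1LC3B at -0.083 (95% interval -0.19 to 0.027). The near-identical copy GABARAPL3, which can share probes with GABARAPL1, had means of 5.76 and 5.87 (0.11, adjusted p = 0.425). Differences between these relatives were not tested.

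WIPI1, which binds a phosphoinositide on the growing membrane, had signals of 8.45, 8.41 and 8.39 in Control and 8.70, 8.80 and 8.85 in Dox. All treated cultures were higher (0.36, SE 0.049, limma adjusted p = 0.0118), or 28.8%. Its relative WIPI2 was level (-0.017, 95% interval -0.10 to 0.069). WIPI1 overlaps ARSG and PRKAR1A in RefSeq, and neither passed limma's test (ARSG 0.10, adjusted p = 0.152, PRKAR1A -0.081, adjusted p = 0.596).

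The rest of the core did not pass. BECN1, the beclin subunit of the lipid kinase that starts autophagosomes, was lower in all treated cultures (-0.16, SE 0.047, limma adjusted p = 0.0911), while its partners ATG14 (0.12, adjusted p = 0.31) and UVRAG (0.028, adjusted p = 0.757) were not. The cargo receptor SQSTM1, or p62, was at 0.032 (95% interval -0.081 to 0.15), and the initiating kinase ULK1 at -0.0046 (95% interval -0.12 to 0.11).

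**Figure D3:**
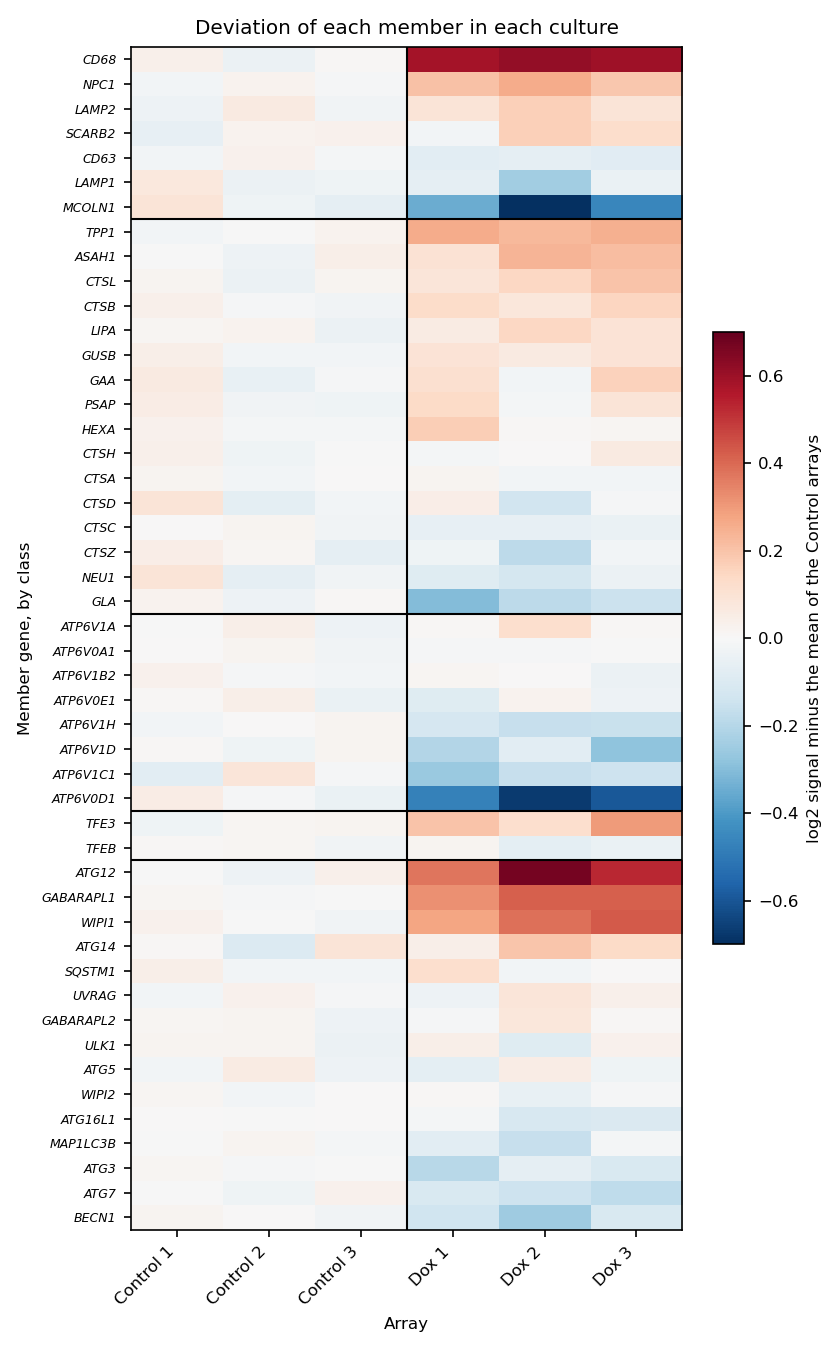
Log2 signal of each member in each of the 6 arrays (columns) minus the mean of its 3 Control arrays, with genes ordered by class and by change and red for higher. The 3 Dox columns of CD68, GABARAPL1, WIPI1 and ATG12 are red throughout and those of MCOLN1 and ATP6V0D1 blue throughout, and the first Dox array is the palest for MCOLN1, ATP6V0D1, ATG12, GABARAPL1 and WIPI1.

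The calls differed in whether they were kept when 1 array was left out or a setting was changed. With 1 array fewer, calls also dropped over all genes, down to 63 that rose and 69 that fell without Dox replicate 3. A lost call therefore does not show that a result rested on that array. ATP6V0D1 and GABARAPL1 kept theirs in all 14 alternatives, with limma adjusted p of at most 0.043 and 0.0489. NPC1 lost its call without any of the Control arrays, Dox replicate 2 or Dox replicate 3 (adjusted p 0.0609 to 0.0947). MCOLN1, TPP1 and ATG12 lost theirs without any of the Control arrays or Dox replicate 3, with limma adjusted p of 0.0727 to 0.0942, 0.0533 to 0.0679 and 0.0518 to 0.0604. WIPI1 lost its call without Control replicate 3 or Dox replicate 3 (adjusted p 0.0589 and 0.0546). Where leaving out 1 array lost the call, the change was 0.20 to 0.23 in NPC1 and -0.53 to -0.46 in MCOLN1. It was 0.24 to 0.26 in TPP1, 0.51 to 0.54 in ATG12 and 0.33 to 0.35 in WIPI1. The direction of the 7 called members was the same in all 14 alternatives. It could hardly be otherwise, as the same arrays were refitted and the groups do not overlap in these genes. The number of members that rose was 2 without Control replicate 1 or 2, 1 without Control replicate 3 and 1 without Dox replicate 3, and the number that fell was 1 in each of these fits.

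Outside the 50, 201 other genes of the pathway in 7 lists were looked up and 181 were measured as single genes. Of these 8 rose (4.42%) and 11 fell (6.08%), with a median change of -0.015. Together 10.5% passed, beside 6.19% of all genes and 9.26% of the 13416 brighter genes. By list, the share that passed ran from 5% to 18.75%, and no list was tested. None of the 19 kept its call in every alternative. All 19 were lost without Control replicate 3 (limma adjusted p up to 0.157) and without Dox replicate 3 (up to 0.154), 18 without Control replicate 1 (up to 0.149), 16 without Control replicate 2 (up to 0.13), 15 without Dox replicate 2 (up to 0.105) and 8 without Dox replicate 1 (up to 0.0877).

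Among 27 other lysosomal membrane proteins 3 rose and 2 fell (18.5% passed, beside 9.26% of the brighter genes). CTNS, which exports cystine, had the largest fall (-0.39, SE 0.061, limma adjusted p = 0.0182), from 6.53, 6.39 and 6.39 to 6.13, 5.95 and 6.07. TMEM106B (0.29), a membrane protein of late endosomes and lysosomes, SLC17A5 (0.26), which exports sialic acid, and SIDT2 (0.19) rose. CLN3 fell (-0.17), and it is named because it completes this count. Among 38 other hydrolases and activators MANBA, beta-mannosidase, rose from 7.02, 6.93 and 7.09 to 7.30, 7.41 and 7.49 (0.39, SE 0.063, limma adjusted p = 0.0197), and CTSV, a cysteine protease close to CTSL, fell (-0.31). Of those 38, 5.26% passed.

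The list with the most falls was that of sorting and delivery, in which 4 of 29 fell (13.8%) and 1 rose, with a median of -0.088. Of the brighter genes 4.9% fell. IGF2R, the mannose 6-phosphate receptor that carries new hydrolases from the Golgi, had signals of 7.40, 7.32 and 7.39 in Control and 7.05, 7.04 and 7.00 in Dox (change -0.34, SE 0.040, limma adjusted p = 0.00909). VPS18 (-0.36) and VPS33A (-0.22) are subunits of the tethers through which endosomes and autophagosomes meet the lysosome, and HPS6 (-0.25) acts in the making of lysosome-related organelles. All 3 fell. LYST, a regulator of lysosome size, rose (0.18) from a mean under the olfactory receptor level, and is named because it completes this count.

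In autophagy beyond the 15 core members, RB1CC1 (0.29, SE 0.064) and ATG13 (0.22, SE 0.035, from 7.69, 7.71 and 7.68 to 7.91, 7.92 and 7.89), both scaffolds of the ULK1 kinase complex, rose and none fell of 31. Of those 31, 6.45% passed, beside 9.26% of the brighter genes. Of 16 receptors (18.75% passed), NBR1 (0.22), a relative of SQSTM1, rose, while BNIP3 (-0.21) and PHB2 (-0.18), receptors on mitochondria, fell. Of 20 genes of nutrient sensing at the lysosome (5% passed), RRAGA, a GTPase that brings mTORC1 to its surface, fell (-0.25, SE 0.042) and none rose. Of the 20 pump subunits and accessories outside the set, ATP6V0A2, given above, was the single call (5%).

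**Figure D4:**
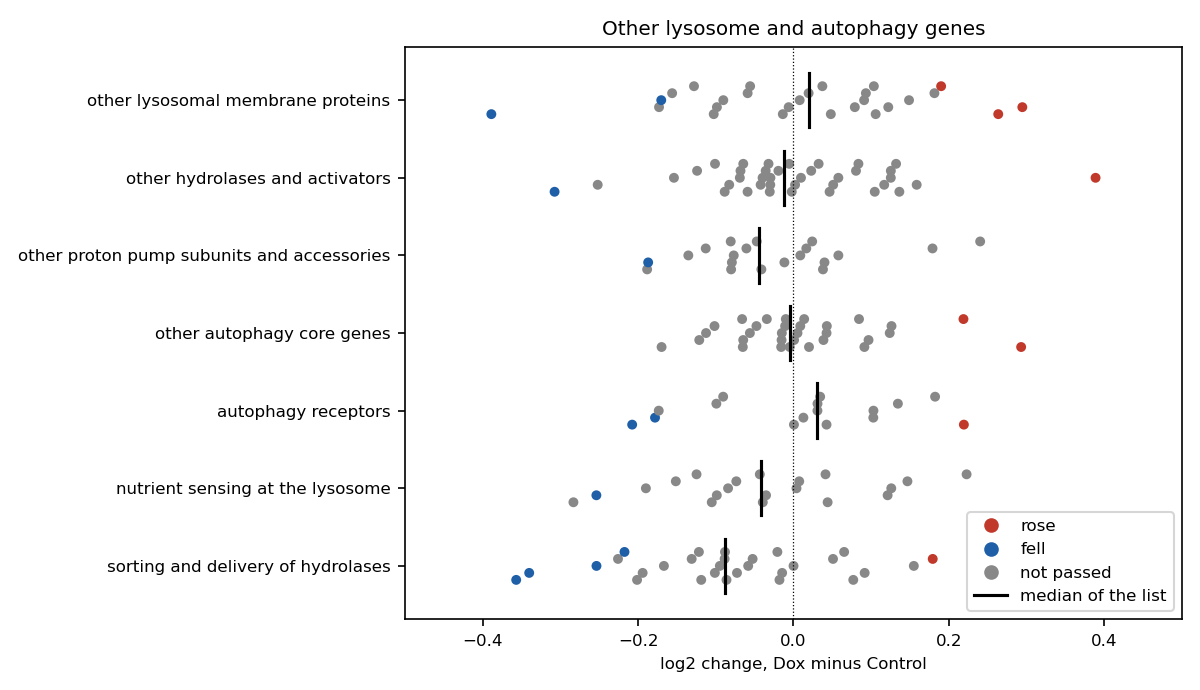
Change of the 181 other measured genes of the pathway (x axis, log2 signal, Dox minus Control), 1 point per gene, by list, with a black bar at the median of each list. Points are spread vertically only for legibility. The list medians lie between -0.088 (sorting and delivery of hydrolases) and 0.031 (autophagy receptors).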

How the data were processed

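RNA of 6 cultures was measured on 1 array each. Titles gave the group and the replicate number. The labels call the cultures replicates without saying whether they were grown on separate occasions, so p-values measure the spread between these cultures. Precision is limited by how few arrays there are. The authors deposited log2 values per probe set, and the submitters' processing notes name RMA. Which software version and annotation build they used is not given in the sources used here. Their log2 scale was read from the range of 0.485 to 14.2. Array medians were 4.12 to 4.17.

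Of 70523 probe sets, 23781 carried 1 gene symbol in the platform annotation, 1543 several and 45199 none here. Symbols were updated through RefSeq's table for GRCh38.p14 (306 changed), and the probe set with the highest mean was kept per gene, which mattered for 528 genes and for the members ATP6V1D and NEU1. No filter on low values was applied. Genes were fitted with limma 3.58.1 in R 4.3.3 (lmFit, eBayes, treatment as the only term), a procedure checked on simulated data, and no test over a list of genes was made. Members, lists and tests were chosen with earlier results of these data known. Named are SLBP, CD68, each member past the threshold, the 2 others of each class with the smallest adjusted p and the 2 others with the largest change, up to 4 called genes per pathway list, markers past the threshold or with the highest signal, and CD68's neighbours. Values of the remaining members, relatives, nearby genes, markers at low signal and the comparison with brighter genes were added after values were seen. Python 3.11.15, pandas 2.3.3 and matplotlib 3.10.9 were used for tables and figures.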

Additional observations from a re-analysis of the deposited data

How the results depend on the processing

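The direction of CD68 and of the 7 called members held in all 14 alternatives, and CD68 stayed between 0.576 and 0.614. These genes were singled out by their values in the same arrays and their groups do not overlap, so this is no independent support. The numbers of called members moved. Of 47 members, 9 rose and 7 fell without dim genes (44 left, with LIPA, TFEB and ATG7 dropped), 9 and 6 with array weights, 7 and 5 with background subtraction, and 7 and 4 with trend and robust settings. GLA, ASAH1, ATP6V1H and TFE3 passed in all of these 4 fits. With the mean of all probe sets per gene, 5 rose and 3 fell, with ATP6V1D added to those that fell. Leaving out 1 array gave 1 to 6 that rose and 1 to 2 that fell. The median change of the 47 was 0.0085 after repeated quantile normalization and -0.016 to 0.0073 when 1 array was left out, against -0.0064. Over all genes, 1025 rose and 1149 fell with background subtraction (13.8% of 15713 genes passed), 1156 and 1413 without dim genes (22.9% of 11206), 948 and 1096 with trend and robust settings (9.12% of 22411) and 1511 and 1714 with array weights (14.4% of 22411). Leaving out 1 array gave 63 to 561 that rose and 69 to 537 that fell. The latter fits have fewer arrays. Otherwise the cause was not tested.

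Over all genes, same-numbered cultures correlated at 0.030, -0.00056 and -0.016 in their deviations from the group means. Differently numbered cultures correlated at -0.10 to 0.10. A batch that touches few genes would not show in these values, so pairing is not excluded. With the replicate number as a block, 1 member rose (GABARAPL1) and 1 fell (ATP6V0D1). In all, 157 genes rose and 174 fell, and the calls of ITGAX, CLDN4 and CLDN7 were lost. CLDN7 was also lost after repeated quantile normalization (limma adjusted p = 0.0516). Genes under the olfactory receptor level are close to background, and changes in them are limited by it.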
